A study of Thermothelomyces thermophilus ATCC 42464 with 6 samples.

Results

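The 95 genes described here are abundant transcripts of Myceliophthora thermophila that stood moderately higher in a strain without the transcription factor MtCLR-2. M. thermophila (Thermothelomyces thermophilus ATCC 42464 in the labels) is a thermophilic filamentous fungus that degrades plant biomass. The members were chosen by their measured levels out of the 2228 genes of the deposited table. A member had a mean of at least 200 FPKM in the deletion strain and a ratio of deletion mean to wild-type mean of at least 2 and under 4. FPKM is fragments per kilobase of transcript per M mapped fragments, a level already divided by transcript length. One further locus met these limits, MYCTH_114107, recorded in earlier work on this table as a cellodextrin transporter, and was left out by the rule. It stood at 108, 109.8 and 115 FPKM in wild-type replicates 1 to 3 and 251, 249 and 237 FPKM in deletion replicates 1 to 3.

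Both groups, WT and MtClr-2 deletion, were grown first in glucose medium, washed, and then kept in 2% Avicel, a microcrystalline cellulose, for 48 h before RNA was taken from the mycelium. Each group has 3 libraries, and the labels do not say whether these came from separate cultures or whether the deletion strain is 1 clone. Poly(A) RNA was sequenced. The spread given below is therefore that between libraries and may be technical. In bulk RNA a higher level per cell and more expressing cells in the mycelium cannot be told apart. The level of the deleted gene itself was not analysed here, since neither the expression table nor the RefSeq gene table names its locus. Over the 95 members Pearson correlations of log2(FPKM + 1) were 0.9961 to 0.9994 between libraries of a strain and 0.9693 to 0.9720 between strains, a description over genes chosen to lie apart by strain.

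MtCLR-2 belongs to the zinc binuclear cluster transcription factors. Its relatives in other filamentous fungi, such as CLR-2 of Neurospora crassa, switch on cellulase genes when cellulose is the carbon source. The question of the series is which genes the factor controls on cellulose. Among the members 1 locus has a recorded role, MYCTH_2303011, named as the protease gene alp-1 in earlier work. Proteases of that kind are secreted by filamentous fungi and digest protein in the medium. Neither the expression table nor the RefSeq gene table carries that name, and all 95 members appear in both under a locus tag alone, with 0 symbols of their own. No further role is therefore given to any member, and the results are ordered by level and ratio. Of the 12 listed loci that earlier work recorded as cellulose-degrading enzymes, cellodextrin transporters or alp-1, alp-1 alone is a member.

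The deposited table holds only genes that differ between the strains. Its smallest ratio among higher genes is 2.00 and its largest among lower genes is 0.50, so the lower edge of the ratio was set by the table as well as by the rule. Of 905 genes higher in the deletion strain, 634 lay between 2-fold and 4-fold, MYCTH_114107 included, and 96 of those reached 200 FPKM, MYCTH_114107 included. All 95 members passed a limma test on log2(FPKM + 1), against a background of 39.3% of the 2106 genes tested being higher and passing, and 100% passing in either direction. In all 95 members every deletion library lay above every wild-type library, against 40.3% of the 2228 table genes. Because the rule and the table both used this contrast, nothing is read from these counts.

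**Figure D1:**
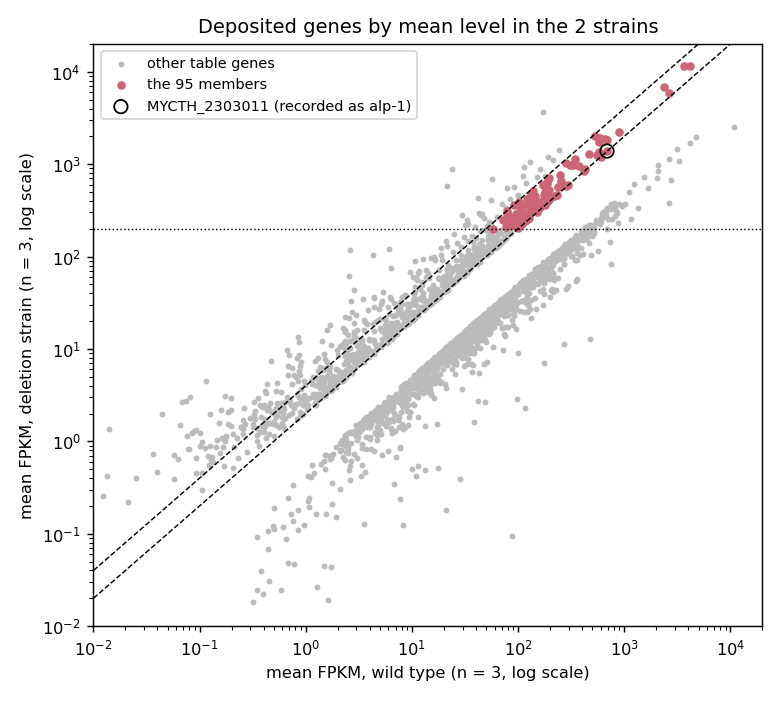
Mean FPKM of each deposited gene in the wild type (horizontal, log scale) and the deletion strain (vertical, log scale), n = 3 libraries each. Red points are the 95 members, grey points the other genes, the dashed lines mark ratios of 2 and 4 and the dotted line 200 FPKM; genes listed at 0 in either strain are not drawn, the members fill the corner above 200 FPKM between the dashed lines, and the circled MYCTH_2303011, recorded as alp-1, sits at its lower edge with a ratio of 2.02.

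As a group the members came to hold a large part of the FPKM in the table. The rule chose them by a high level and a ratio of at least 2, so their larger share in the deletion strain follows from the choice. They make up 4.26% of the table genes. They held 15.9%, 15.8% and 15.7% of the summed FPKM in wild-type replicates 1 to 3, and 44.2%, 44.1% and 44.4% in deletion replicates 1 to 3. The libraries of a strain lay close together, and the strain means lay 28.4 percentage points apart. In FPKM the members summed to 32125 ± 58.9 in the wild type against 87672 ± 1169.9 in the deletion strain (SD, n = 3), a ratio of 2.73. The sum over the whole table was nearly level, at 203029 ± 1076 and 198245 ± 2008 FPKM. With FPKM divided by median-of-ratios factors over the listed genes, a scaling that shifts all strain differences, the ratio was 5.52 and 0 genes met the rule. The denominator of the shares is the deposited table and not the whole transcriptome, so these are shares of the listed genes.

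The members are 10.5% of the 905 higher genes and carried 59.0% of the summed FPKM by which those genes exceeded the wild type. The 37 genes that were at least 4-fold higher and reached 200 FPKM carried 20.8%. Both figures follow from the level and ratio limits and are a description. The 4 most abundant members made up 39.6% ± 0.27 of the members' sum in the wild type against 40.6% ± 0.32 in the deletion strain. The other 91 went from 19394 ± 53.5 to 52035 ± 470.00 FPKM, a ratio of 2.68 against 2.80 for the 4.

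**Figure D2:**
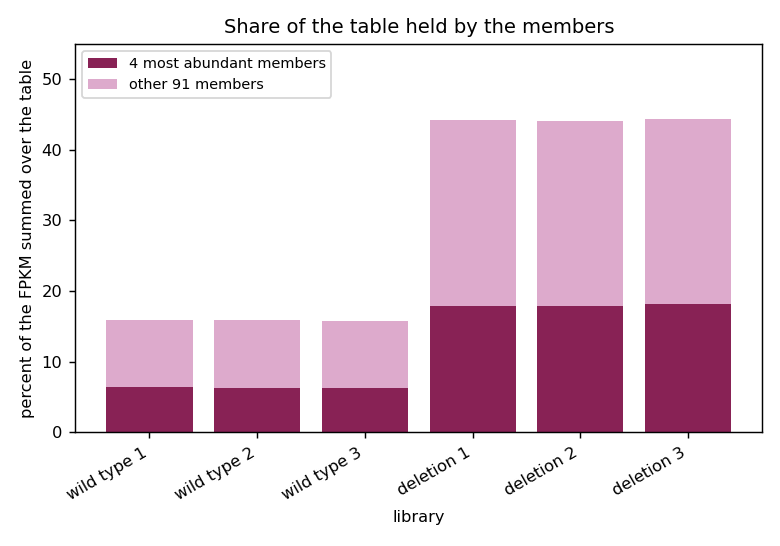
Percent of the FPKM summed over the table (vertical) that the members held in each of the 6 libraries (horizontal), split into the 4 most abundant members (dark) and the other 91 (light); a bar is 1 library and has no error. The 3 wild-type bars stand at 15.7% to 15.9% and the 3 deletion bars at 44.1% to 44.4%. Both parts of the bar are taller in the deletion strain, which follows from choosing genes at least 2-fold higher there.

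Of the members, 17 had a deletion mean of at least 1000 FPKM, 18 lay between 500 and 1000 FPKM and 60 between 200 and 500 FPKM. In the wild type 31 were already at 200 FPKM or more, 43 lay between 100 and 200 FPKM and 21 were under 100 FPKM. Members made up 3 of the 10 most abundant table genes in the wild type against 7 of the 10 in the deletion strain. Among the 100 most abundant they were 17 and 57. These rises follow from choosing genes at least 2-fold higher in the deletion strain. Of all 187 table genes with a deletion mean of at least 200 FPKM, 95 are members by the rule. The order of the members was largely kept: over the 95 genes Spearman's rho between the wild-type and deletion means was 0.92, a description in which both axes share the narrow range of ratios set by the rule.

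The 2 most abundant transcripts of the table in the deletion strain were both members. MYCTH_2307990 stood at 4139.8, 4138 and 4094 FPKM in wild-type replicates 1 to 3 and 11368, 11484 and 11706 FPKM in deletion replicates 1 to 3. Its ratio was 2.79 and its log2 change 1.48 ± 0.02 (SE, limma, on log2(FPKM + 1)), and its rank in the table went from 4 to 1. MYCTH_110028 stood at 3728, 3612 and 3548 FPKM in wild-type replicates 1 to 3 and 11474, 11389 and 11617 FPKM in deletion replicates 1 to 3. With a ratio of 3.17 it passed from below MYCTH_2307990 in every wild-type library to within their spread in the deletion strain, where it was the higher of the pair in replicate 1 and the lower in replicates 2 and 3.

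The next pair changed order. MYCTH_2315548 stood at 2358, 2304 and 2358 FPKM in wild-type replicates 1 to 3 and 6734, 6553 and 7053 FPKM in deletion replicates 1 to 3, a ratio of 2.90. MYCTH_2141513 stood at 2632, 2639.8 and 2644 FPKM in wild-type replicates 1 to 3 and 5671, 5754 and 6105 FPKM in deletion replicates 1 to 3, a ratio of 2.21. MYCTH_2141513 was the higher of these in all 3 wild-type libraries and the lower in all 3 deletion libraries. In each case the strains were far apart: the lowest deletion value of MYCTH_2141513 was 2.14 times its highest wild-type value. MYCTH_2141513 had a coefficient of variation (CV, SD over mean) of 0.25% in the wild type, well below the member median of 2.27%. In the deletion strain its CV was 3.95%, above the member median of 2.04%, and replicate 3 was the highest.

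Below these 4 there was a step in level, and the next 6 members lay between 1717 and 2229.7 FPKM in the deletion strain. MYCTH_88187 stood at 899, 907 and 887 FPKM in wild-type replicates 1 to 3 and 2204, 2143 and 2342 FPKM in deletion replicates 1 to 3, a ratio of 2.48. MYCTH_2304231 stood at 515, 531 and 539 FPKM in wild-type replicates 1 to 3 and 2088, 1988 and 1947 FPKM in deletion replicates 1 to 3, a ratio of 3.80 and a log2 change of 1.92 ± 0.03 (SE). That was the largest ratio among the 10 most abundant members, and the gene moved from rank 67 to rank 8 of the table. MYCTH_80427 stood at 597, 605 and 572 FPKM in wild-type replicates 1 to 3 and 1963, 1981 and 1785 FPKM in deletion replicates 1 to 3, a ratio of 3.23, with deletion replicate 3 the lowest of its strain. MYCTH_2314483 stood at 646, 654 and 662 FPKM in wild-type replicates 1 to 3 and 1792, 1795 and 2042 FPKM in deletion replicates 1 to 3, a ratio of 2.87, with deletion replicate 3 the highest of its strain. The 2 genes thus deviated in opposite directions in the same library.

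The last 2 of the 10 were among the steadier members. MYCTH_77354 stood at 676, 688 and 699 FPKM in wild-type replicates 1 to 3 and 1860.01, 1844 and 1832 FPKM in deletion replicates 1 to 3, a ratio of 2.68. MYCTH_111645 stood at 581, 581 and 580.4 FPKM in wild-type replicates 1 to 3 and 1730.2, 1692 and 1728 FPKM in deletion replicates 1 to 3, a ratio of 2.96, and its wild-type values differed by about 1 FPKM. The SDs of MYCTH_111645 were 0.560 and 21.6 FPKM.

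**Figure D3:**
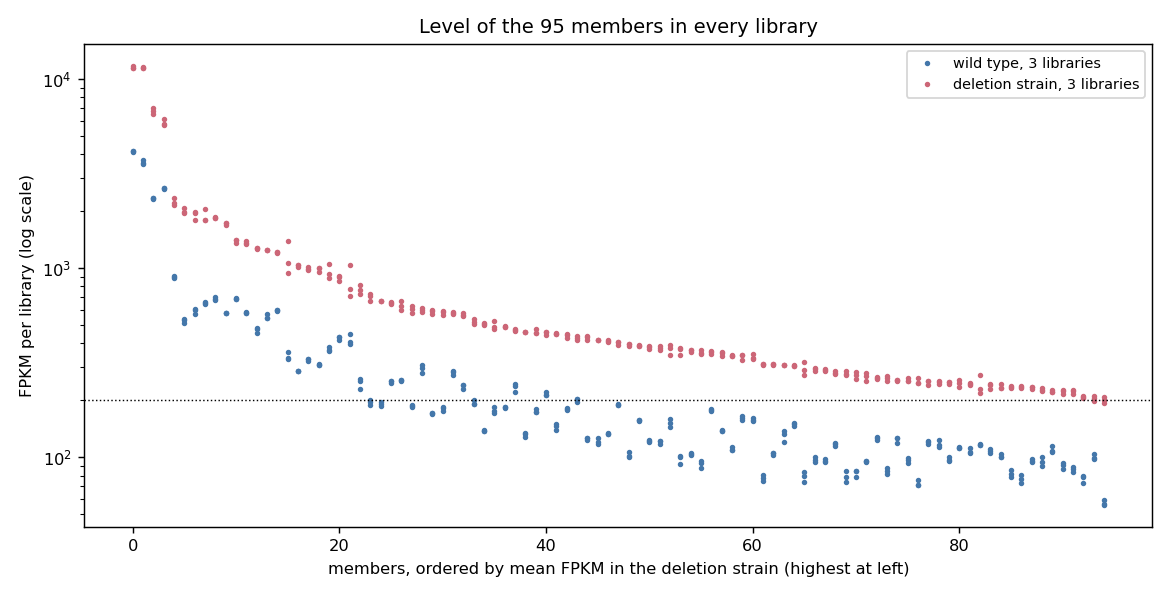
FPKM (vertical, log scale) of the 95 members in each of the 6 libraries, with members ordered along the horizontal axis by their deletion mean; blue points are the 3 wild-type libraries and red points the 3 deletion libraries, and the dotted line marks 200 FPKM. The 2 colours do not overlap at any member, the first 4 members stand above the rest in both strains, and the red points spread widest at 2 short genes, MYCTH_2314489 and MYCTH_2314274.

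MYCTH_2303011, the locus recorded as alp-1, stood at 682, 691 and 688 FPKM in wild-type replicates 1 to 3 and 1407, 1400.1 and 1351 FPKM in deletion replicates 1 to 3. The deletion libraries were all higher, with no overlap, and the means went from 687 ± 4.54 to 1386 ± 30.6 FPKM (SD, n = 3). By deletion level it came next after the 10 members above, and it moved from rank 43 to rank 17 of the table. Its ratio of 2.02 (log2 change 1.01 ± 0.03, SE) was close to the lower limit of the rule, and single deletion libraries set against single wild-type libraries gave ratios of 1.95 to 2.06 over the 9 pairs. It stayed a member when any 1 library was left out. Its 1 immediate neighbour in the RefSeq gene order that the table lists, MYCTH_2117720, was a weak transcript and lower in the deletion strain, at 8.73 ± 1.405 against 4.25 ± 0.878 FPKM.

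Ratios were spread over the whole allowed range and were most frequent at its lower end. Of the 95 members 39 had a ratio of 2 to 2.5, 22 of 2.5 to 3, 21 of 3 to 3.5 and 13 of 3.5 to 4. The median ratio was 2.68 and the median log2 change 1.42, where the median over all 2106 tested table genes was -0.99. Level and ratio were only weakly related among the members, with a Spearman's rho of -0.22 between wild-type mean and ratio over 95 genes, a description in which the wild-type mean enters both measures. The limit of 200 FPKM also admits the weakest wild-type transcripts only at larger ratios, which ties level and ratio further.

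Of the 5 largest ratios, 4 belonged to members below the median wild-type mean of 149.6 FPKM and below the median deletion mean of 401 FPKM, and 1 to a member among the 10 most abundant. The level limit of the rule ties a low wild-type mean to a larger ratio in part. MYCTH_2308157 stood at 80.3, 77.9 and 75.3 FPKM in wild-type replicates 1 to 3 and 307, 312 and 309 FPKM in deletion replicates 1 to 3, a ratio of 3.98. MYCTH_2302376 stood at 87.9, 94.9 and 92.9 FPKM in wild-type replicates 1 to 3 and 354, 371 and 352 FPKM in deletion replicates 1 to 3, a ratio of 3.90. MYCTH_112329 stood at 99.9, 101 and 107 FPKM in wild-type replicates 1 to 3 and 395, 395 and 388 FPKM in deletion replicates 1 to 3, a ratio of 3.83. In all 3 the highest wild-type library was far below the lowest deletion library. MYCTH_2304231, described above, followed at 3.80, and MYCTH_88195 at 3.76 with 99.9, 91.9 and 101 FPKM in wild-type replicates 1 to 3 and 378, 348 and 375 FPKM in deletion replicates 1 to 3.

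The limits of the rule cut through a continuous range of values at 200 FPKM and at a ratio of 4. Just inside 200 FPKM lay MYCTH_2309641, with wild-type and deletion means of 57.4 and 201 FPKM (ratio 3.51), MYCTH_2297953 with 100.3 and 205 FPKM (ratio 2.04) and MYCTH_2294607 with 77.3 and 208 FPKM (ratio 2.69). Just outside lay MYCTH_2092861 with 55.5 and 198 FPKM (ratio 3.57), MYCTH_2303440 with 95.8 and 198 FPKM (ratio 2.07) and MYCTH_2301019 with 78.2 and 194 FPKM (ratio 2.47). The members nearest a ratio of 4 were MYCTH_2308157, MYCTH_2302376 and MYCTH_112329, and beyond it came MYCTH_2315227 with 78.1 and 318 FPKM (ratio 4.07), MYCTH_2077546 with 55.3 and 231 FPKM (ratio 4.18) and MYCTH_106768 with 63.7 and 268 FPKM (ratio 4.21).

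At the ratio of 2 the edge was a gap. Just inside lay MYCTH_2082522 with 234 and 469.6 FPKM (ratio 2.01), MYCTH_2313746 with 599 and 1207 FPKM (ratio 2.01) and MYCTH_2303000 with 178 and 359 FPKM (ratio 2.02). The next abundant genes of the table on the other side were already lower in the deletion strain, MYCTH_2311966 with 743 and 371 FPKM (ratio 0.50), MYCTH_2095534 with 423 and 209.6 FPKM (ratio 0.50) and MYCTH_2299739 with 1220.5 and 604 FPKM (ratio 0.49). Genes between these ratios were not analysed here.

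The spread between libraries was not used by the rule, but whether it entered the selection of the table genes is not known here. The median CV of the members was 2.27% in the wild type against 2.04% in the deletion strain, and 78 of the 95 were under 5% in both. The CV was the larger in the deletion strain at 50 members. The 37 strongly raised genes of like deletion level had medians of 3.32% and 2.19%, at a lower wild-type level. The 54 listed genes that reached 200 FPKM in the deletion strain but were lower there than in the wild type had medians of 1.78% and 3.15%. The 538 genes raised 2-fold to 4-fold with a deletion mean under 200 FPKM had medians of 8.37% and 6.29%. Their levels were much lower, with median means of 8.49 FPKM in the wild type and 22.4 FPKM in the deletion strain. These are descriptions without a test. Fragment numbers behind a member, roughly estimated from the lowest values of the table, had medians of 5109.8 to 14774 per library, for which counting alone gives a CV of 0.823% to 1.399%. The depth behind them, 6.57 to 16.8 M fragments, rests on few values (11 of 46 in the library with the lowest estimate), and a library's depth may be off by a whole multiple. The fragment numbers also use annotated gene lengths with introns, so they may be too high and the counting CV too low.

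A few short genes varied more between the deletion libraries. MYCTH_2314489, with an annotated length of 570 bp the shortest member, stood at 331, 336 and 358 FPKM in wild-type replicates 1 to 3 and 1062, 947 and 1382 FPKM in deletion replicates 1 to 3. MYCTH_2314274, of 731 bp, stood at 408, 395 and 445 FPKM in wild-type replicates 1 to 3 and 779, 714 and 1036 FPKM in deletion replicates 1 to 3. Their deletion CVs of 19.9% and 20.2% were the largest of the members, and in both deletion replicate 3 was the highest library, 1.38 and 1.39 times the mean of replicates 1 and 2. Wild-type replicate 3 was also the highest of its strain at both, 1.07 and 1.11 times the mean of the other two, with wild-type CVs of 4.19% and 6.26%. MYCTH_2130517, of 1023 bp, was the 1 other member with a CV over 10%, at 11.5%, and stood at 118, 117 and 116 FPKM in wild-type replicates 1 to 3 and 230.4, 219 and 272 FPKM in deletion replicates 1 to 3. The steadiest member over both strains was MYCTH_2313746, of 2371 bp, at 595, 603 and 600.4 FPKM in wild-type replicates 1 to 3 and 1211, 1212 and 1198 FPKM in deletion replicates 1 to 3.

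Over the 12 members under 1200 bp, deletion replicate 3 was above the mean of replicates 1 and 2 in 9, with a median of 1.07 times that mean and a range of 0.95 to 1.39. Over the 83 longer members it was above in 35, with a median of 0.99 and a range of 0.89 to 1.09. Spearman's rho between length and this deviation was -0.35 over the 95 members, against -0.22 for wild-type replicate 3; the genes share the library, so this is a description. Deletion replicate 2 stood the other way, above the mean of replicates 1 and 3 in 3 of the 12 shorter members with a median of 0.94, and deletion replicate 1 in 4 of the 12 with a median of 0.97. Each library is set against the other two of its strain, so these deviations are not independent. In the wild type replicate 3 was above in 6 of the 12 shorter members, with a range of 0.96 to 1.11. Lengths are those of RefSeq assembly ASM22609v1 from gene start to gene end, introns included, and may not be the lengths behind the FPKM. The part of length, RNA quality or library making in this deviation was not tested.

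**Figure D4:**
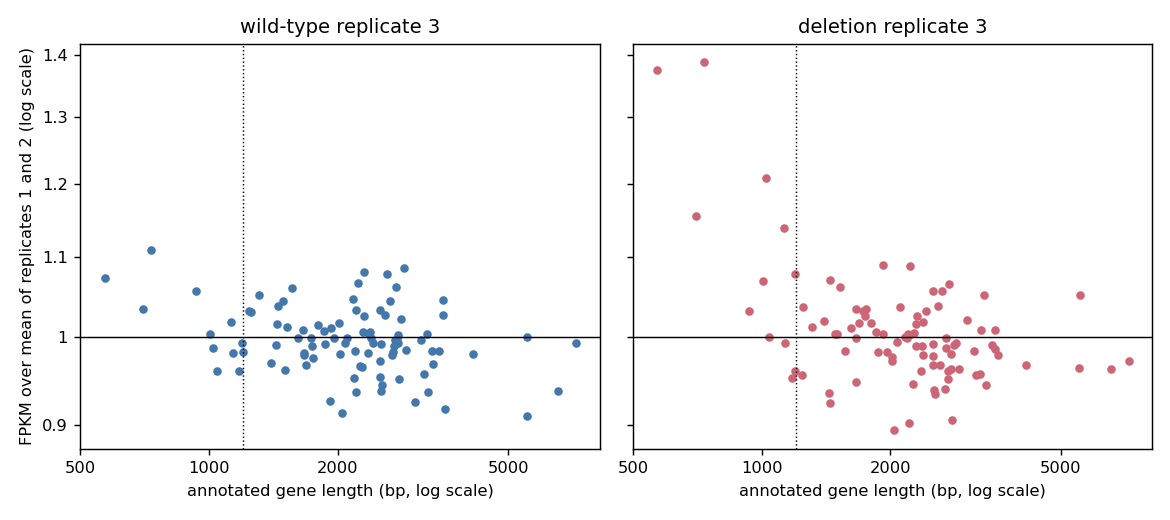
FPKM in replicate 3 divided by the mean of replicates 1 and 2 of the same strain (vertical, log scale) against annotated gene length (horizontal, log scale), for the wild type (left) and the deletion strain (right); a point is 1 of the 95 members and the dotted line marks 1200 bp. In deletion replicate 3 the shortest members rise to 1.38 and 1.39, while the 83 members of 1200 bp or more stay between 0.89 and 1.09.

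The membership of 2 genes depended on this library. Without deletion replicate 3 the ratio of MYCTH_2314274 was 1.79 in place of 2.03, and that of MYCTH_2130517 was 1.93 in place of 2.06, so that both left the set. MYCTH_2314274 also left without wild-type replicate 2, with a ratio of 1.98. MYCTH_2314489 stayed a member, and so did MYCTH_2300501, of 701 bp, whose deletion replicate 3 was 1.16 times the mean of the other two. Over all 6 ways of leaving out 1 library 88 members stayed throughout and 7 left at least once, and 3 other genes entered. Of the other 5 that left, MYCTH_2082522 fell to ratios of 1.95, 1.997 and 1.999 without wild-type replicate 3, deletion replicate 2 and deletion replicate 1. Without wild-type replicate 1 MYCTH_2133483 had a ratio of 1.99 and MYCTH_2308157 one of 4.04. MYCTH_2301096 had a ratio of 1.999 without wild-type replicate 2, and MYCTH_2309641 a deletion mean of 197 FPKM without deletion replicate 2. One gene that entered, MYCTH_2071953, of 455 bp, was high in deletion replicate 3 alone, at 119, 87.4 and 338 FPKM in deletion replicates 1 to 3 against 62.2 to 74.5 FPKM in the wild type.

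The rule was also applied to 2 libraries of each strain, and the ratio was read in the third of each, which the rule had then not used. This was done for all 9 ways of setting aside 1 library of each strain. Between 92 and 96 genes were chosen, 91 to 95 of them members. In the libraries set aside all chosen genes were higher in the deletion library. Their median ratio there was 2.64 to 2.76, beside 2.67 to 2.73 in the choosing libraries. Between 83 and 90 of the genes again lay between 2-fold and 4-fold, 4 to 8 fell under 2-fold and 1 to 3 reached 4-fold or more. The lowest ratio in a set-aside pair was 1.17, at MYCTH_2071953. The table itself had been selected at 2-fold over all 6 libraries, the set-aside ones included. The direction was thus not free to change, the closeness of the ratios was partly fixed, and no test is given.

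**Figure D5:**
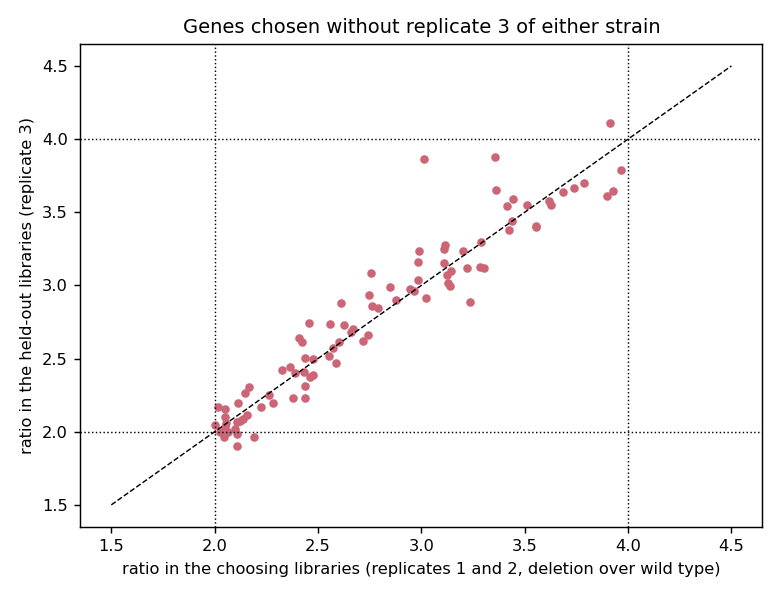
Ratio of deletion to wild-type FPKM in replicate 3 of each strain (vertical) against the ratio of the means of replicates 1 and 2 (horizontal), for the 92 genes that met the rule on replicates 1 and 2 alone. The dashed line marks equal ratios and the dotted lines 2 and 4; 85 of the 92 stayed between 2-fold and 4-fold, 6 fell under 2-fold and 1 passed 4-fold. The table had already been selected at 2-fold with replicate 3 included.

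Few members stood side by side. In the RefSeq gene order 2 pairs of members were immediate neighbours. MYCTH_2313040 stood at 109, 114 and 109 FPKM in wild-type replicates 1 to 3 and 345, 347 and 343 FPKM in deletion replicates 1 to 3, and its neighbour MYCTH_117146 at 84.1, 78.3 and 73.9 FPKM in wild-type replicates 1 to 3 and 275, 271 and 286 FPKM in deletion replicates 1 to 3. Their ratios were 3.12 and 3.52, and the annotated spans do not overlap. In the other pair MYCTH_79688, at 191, 192 and 199.9 FPKM in wild-type replicates 1 to 3 and 519, 504 and 540.1 FPKM in deletion replicates 1 to 3, stood next to the short gene MYCTH_2314489 described above, with ratios of 2.68 and 3.31. The spans of this pair overlap, and no source used here states whether the counting used strand, so reads from the shared stretch cannot be told apart and both levels are uncertain.

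Of the 190 neighbouring places beside the members, 60 held a listed gene, and 40 of those 60 (66.7%) were also higher in the deletion strain. For the 810 other higher genes the share was 72.3% of 501 listed neighbours, and for the 1323 lower genes 21.1% of 753. The neighbours that were higher ranged from listed at 0 in the wild type to abundant. Beside MYCTH_2315548 stood MYCTH_2306607, at 45.2 ± 3.74 FPKM in the wild type against 287 ± 3.63 in the deletion strain, a ratio of 6.34. Between the members MYCTH_2297802 and MYCTH_2313964 stood MYCTH_2313963, at 33.9 ± 0.785 and 96.3 ± 5.86 FPKM, a ratio of 2.85 with ratios of 2.55 and 2.36 on its sides. That run of 3 higher genes fell outside the limits only by the level of its middle gene. Abundant neighbours in the opposite direction occurred too: beside MYCTH_2133483, higher by 2.04-fold, MYCTH_2301963 went from 1688 ± 64.0 to 547 ± 34.8 FPKM. The neighbours named here were chosen after their values were seen.

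Gene length was not part of the rule. FPKM is divided by a transcript length, which may differ from the annotated lengths given here, since these include introns. The members had a median annotated length of 2224 bp, from 570 to 7216 bp. The median was 1861 bp in the 538 genes raised 2-fold to 4-fold with a deletion mean under 200 FPKM, and 1780 bp in the 37 strongly raised genes. It was 1335 bp in the 150 genes at 200 FPKM or more in the wild type that were lowered 2-fold to 4-fold. Over the whole table it was 1653 bp. Within the members longer genes tended to lower levels, with a Spearman's rho of -0.25 between length and wild-type mean, while length and ratio had a rho of -0.07. These are descriptions over genes, which are not independent replicates, and no test was made.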

How the data were processed

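RNA-seq of 3 wild-type and 3 MtClr-2 deletion libraries was analysed as FPKM per gene, deposited by the authors with 1 column per library. Columns were matched to samples by library name, and groups and replicate numbers came from the titles. The submitters' processing notes list HISAT2, RSEM, DESeq2, StringTie 1.3.1 and fastp 0.18.0 with no role. Settings and genome build were not given in the sources used here. FPKM were used as deposited, with no further scaling, and no count was available, so depth was only roughly estimated. limma 3.58.1 in R 4.3.3 was fitted across the 2106 table genes that averaged 1 FPKM or more, on log2(FPKM + 1) with a variance trend, two-sided, Benjamini-Hochberg adjusted, without a replicate block. The fit was checked on simulated data. Descriptions were computed in Python 3.11.15 with pandas 2.3.3, numpy 2.4.6, matplotlib 3.10.9 and scipy 1.17.1.

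The members and lists were chosen with earlier results of these data known. Genes named by rule were alp-1, the 10 highest members, the 5 largest ratios, members next to each other, the members nearest each limit and the most and least variable. Other genes named were chosen after their values were seen. Lists by product name could not be made, since the gene table (RefSeq, assembly ASM22609v1, 2226 table genes matched by locus tag and 2 by symbol) holds no product names. Promoter and protein sequences were not used here. Because no build is named, no coordinates are printed.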

Additional observations from a re-analysis of the deposited data

How the results depend on the processing

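With FPKM divided by median-of-ratios factors, which treat the median listed gene as unchanged and so moved the median log2 change of the 2106 tested genes by 0.94, 0 genes met the rule, the ratio of the members' summed FPKM was 5.52 in place of 2.73 and their median log2 change 2.43 in place of 1.42. All listed genes differ at least 2-fold, so these factors rest on no unchanged gene. The count of 0 was fixed in advance, since the table lists no gene that this shift could bring within the ratio limits. The rule gave 181 genes with a level limit of 100 FPKM and 48 with 400 FPKM, in place of 95. Without the 3 most abundant members the summed ratio was 2.63 and the difference in the share of table FPKM 22.9 in place of 28.4 percentage points; without the 10 most abundant table genes, 4 of them members, it was 22.8 points. The median CV, averaged over the strains, was 2.42%, or a standard deviation of 0.035 on the log2 scale. Leaving out 1 library gave 93 to 95 genes by the rule, 95 members passing limma throughout, a summed ratio of 2.71 to 2.74, a median log2 change of 1.41 to 1.42, a share difference of 28.3 to 28.5 points and a median CV of 1.78% to 2.51%. The median ratio in set-aside libraries was 2.65, and 2.67 with geometric means in the choice. With the replicate number as a block 95 members passed, as without it. Same-numbered libraries had correlations of deviations of -0.005, 0.031 and 0.082, the last being that of the replicate 3 libraries. Differently numbered libraries had -0.064 to 0.040. These values do not decide whether the numbers pair the samples. The log2 changes of 26 named members gave 260 values under alternatives, all with the same direction and side of the threshold. The choice of the genes fixes most of this.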

Other observations

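The deletion libraries differed by gene length outside the members too. Among the 299 other table genes that averaged 100 FPKM or more over the 6 libraries, those under 1200 bp stood above the mean of deletion replicates 1 and 2 in 73 of 89 cases, with a median of 1.06 times that mean. The 210 longer genes did so in 87 cases, with a median of 0.99. Spearman's rho between length and the deviation was -0.54 over these genes, which share the library. Deletion replicates 1 and 2 stood the other way, with 27 and 25 of the 89 shorter genes above the mean of the other two libraries, medians of 0.98 and 0.97 and a rho of 0.24 and 0.47; each deviation is set against the other two libraries, so they are not independent. In wild-type replicate 3 the same deviation was smaller, with 67 of 89 shorter genes above, a median of 1.03 and a rho of -0.32. The extreme case was MYCTH_2071953, of 455 bp, at 3.28 times the mean of the other two deletion libraries. The cause was not tested.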
